A study of Mus musculus with 23 samples.

Results

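The alpha-defensin genes described here are the 8 named Defa1, Defa2, Defa3, Defa-rs2, Defa-rs4, Defa-rs7, Defa-rs10 and Defa-rs12 on a mouse expression microarray. All probes carrying 1 of these names were taken, which gave 13 of the 56605 probes and 8 of the 37074 named features on the array. The genes had been picked because of their signal in the knockout ventricles at the older age, so the values of that comparison, of its change with age and of the age differences are given as a description. Where such a comparison is counted against the threshold used for all probes, the count follows from the choice of the genes and nothing is read from it. The genotype comparison at the younger age did not define the set and is given with limma's adjusted p. Its earlier result for Defa2 was known, and most of the probes entered that fit only through the older knockout mice, so it is no independent support either.

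RNA from the cardiac left ventricle of 23 male mice was hybridised, 1 mouse per array, in 4 groups. These were WT mice at postnatal day 20 (WT_P20, n = 6), mice with a cardiac knockout of Efnb1 at day 20 (Efnb1cKO_P20, n = 6), WT mice at day 60 (WT_P60, n = 5) and knockout mice at day 60 (Efnb1cKO_P60, n = 6). Efnb1 encodes the membrane ligand ephrin-B1. All mice shared a mixed S129/S4 × C57BL/6 background, were fed chow and received no treatment, and the labels do not name the Cre line or the promoter that drives it. Levels are log2 of the processed spot signal, scaled to the 75th percentile of each array, so a difference of 1 is a 2-fold difference in signal. A probe counted as measured on an array only where the scanner software called it well above background.

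Alpha-defensins are small, cysteine-rich antimicrobial peptides. In the mouse they are made above all by Paneth cells at the base of the small intestinal crypts, where they are called cryptdins, are stored in secretory granules and are cut from their precursors by the metalloproteinase Mmp7. The cryptdin-related sequence (Defa-rs) genes encode relatives with the same signal and pro-regions and a different arrangement of cysteines, and all of these genes lie close together in a cluster of near-identical copies on chromosome 8. The heart is not a known site of their synthesis, and mouse neutrophils are known to lack them.

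The probe sequences come first because they set how far a signal can be given to 1 gene. The following are probes of 4 related-sequence genes, written 5′ to 3′, with the longest run that all 4 share in capitals.
Defa-rs4 A_55_P2018865: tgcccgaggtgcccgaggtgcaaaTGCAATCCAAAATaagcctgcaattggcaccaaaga
Defa-rs7 A_55_P2018862: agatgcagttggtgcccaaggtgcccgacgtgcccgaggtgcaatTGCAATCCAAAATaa
Defa-rs10 A_55_P2076994: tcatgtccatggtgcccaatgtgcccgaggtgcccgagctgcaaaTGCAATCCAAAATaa
Defa-rs12 A_55_P2045213: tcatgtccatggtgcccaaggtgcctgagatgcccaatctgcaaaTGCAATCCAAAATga
The shared run of 13 bases stood in these 4 probes and in no other of the 56605, and its reverse complement stood in none. The Defa-rs10 and Defa-rs12 probes differed at 6 of 60 bases. The repeat unit TGCCC, counted on the strand of the probe, stood at least 3 times in 5 of the 56605 probes (0.00883%), and the probes of Defa-rs7 and Defa-rs10 were among those 5.

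The next set shows why the cryptdin probes overlap. The probes of Defa1 and Defa3 share the run of 18 bases in capitals, which no other probe holds. The Defa2 probes, in lower case only, are shown because they carry the same gene name and gave different signals.
Defa1 A_55_P1999110: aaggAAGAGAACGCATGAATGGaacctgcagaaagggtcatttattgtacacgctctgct
Defa3 A_55_P1961410: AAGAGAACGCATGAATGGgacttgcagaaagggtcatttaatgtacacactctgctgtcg
Defa2 A_55_P1961408: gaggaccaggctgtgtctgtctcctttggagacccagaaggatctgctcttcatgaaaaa
Defa2 A_55_P1961407: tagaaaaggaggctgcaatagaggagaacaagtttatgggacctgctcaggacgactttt
The array's own annotation gives several names to some of these probes. Both Defa2 probes list Defa2, Defa20, Defa32 and Defa33, the printed Defa3 probe lists Defa3, Defa17, Defa23 and Defa31, and the printed Defa1 probe lists Defa1 and Defa24. The Defa-rs4 probe lists Defa-rs2 and Defa-rs10 beside its own name.

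By position the array's annotation places 5 of the 13 probes, all on chromosome 8 of mm9, and gives the other 8 as unmapped. The Defa1 probe A_55_P2068510 lies at chr8:22332166-22332226. The Defa3 probes A_55_P1961410 and A_55_P2064913 overlap, at chr8:22427899-22427958 and chr8:22427934-22427993. The Defa2 probes A_55_P1961408 and A_55_P1961407 lie at chr8:22619884-22619943 and chr8:22620525-22620584. The 5 placed probes span 288 kb, and whether they fall in exons or UTRs was not analysed here. Among all 35718 probes tested, 157 were unmapped (0.44%), and 7 of those belong to the genes described here.

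Of the 13 probes, 10 were tested, because the scanner software called them above background on 5 or more of the 23 arrays. Just inside that limit were the Defa1 probe A_55_P1999110 with 5 arrays, and the Defa1 probes A_55_P1999108 and A_55_P2068510 and the Defa2 probe A_55_P1961408 with 6 each. Outside it were a Defa2, a Defa3 and a Defa-rs7 probe, each with 0 arrays. For 7 of the tested probes, those of Defa1, Defa2, Defa3, Defa-rs4 and Defa-rs12, the limit was reached only with the Efnb1cKO_P60 arrays, so these probes could enter the test only by being high there.

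The cryptdin genes were near the detection limit in 3 of the 4 groups. The Defa2 probe A_55_P1961408 had levels of 0.97 to 1.32 (median 1.25) in WT_P20 and 2.0 to 2.82 (median 2.35) in Efnb1cKO_P20, with no array of either group well above background. At day 60 the WT arrays read 1.12, 1.20, 1.89, 2.41 and 1.58, again with none above background, and the knockout arrays read 4.69 to 5.45 (median 5.11) with 6 of 6 above background. Every knockout array thus lay above every WT array at both ages. At day 60 the knockout mean was 5.09 ± 0.28 (SD, n = 6) and the WT mean 1.64 ± 0.53 (SD, n = 5). The difference in signal was 3.45 on the log2 scale, from a WT level that was not measured. As a bound, the signal was at least 3.37-fold higher in the knockout. For such a bound the dim group is given, array by array, the lowest signal of any probe called above background, or the probe's own signal where that was higher, and the mean of these values is set against the mean of the bright group.

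The other Defa2 probe, A_55_P1961407, listed the same 4 gene names and did not follow. None of the 23 arrays had it well above background, and its mean was 1.42 ± 0.21 (SD, n = 5) for WT_P60 and 1.5 ± 0.13 (SD, n = 6) for Efnb1cKO_P60. The Defa2 probe that was bright is 90% identical to a probe of Gm21498, which RefSeq names Defa36, and the dim probe is 83.3% identical to a probe of Defa21. The Gm21498 probe itself was well above background on 3 of 6 Efnb1cKO_P60 arrays and on no array of the other groups, with means of 1.27 in WT_P60 and 3.53 in Efnb1cKO_P60. The signal named Defa2 therefore cannot be assigned to Defa2 alone.

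Defa3 had the same shape with 1 exception among the WT arrays. On the probe A_55_P1961410 the WT_P20 arrays ranged from 1.02 to 4.39 (median 1.29), and the array at 4.39, replicate 4, was the only WT array well above background. Efnb1cKO_P20 arrays ranged from 1.04 to 3.06 (median 1.90), inside the WT range. WT_P60 arrays read 1.15, 1.21, 1.31, 1.29 and 1.58. Efnb1cKO_P60 arrays ranged from 4.26 to 4.93 (median 4.76), all 6 above background and all above the WT_P60 arrays. The knockout mean at day 60 was 4.71 ± 0.25 (SD, n = 6) against 1.31 ± 0.17 (SD, n = 5), which gives at least a 2.59-fold higher signal. The overlapping probe A_55_P2064913 was well above background on no array, but its 6 knockout arrays at day 60, at 2.74 to 3.68, also lay above all 5 WT_P60 arrays, at 1.1 to 1.57.

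Defa1 was read by 3 probes that moved alike. On A_55_P1999110 the WT_P60 arrays read 1.22, 2.14, 1.39, 1.37 and 1.64, and the Efnb1cKO_P60 arrays 3.62 to 4.45 (median 4.29), with 5 of 6 above background. On the same probe the groups at day 20 overlapped, at 1.08 to 2.55 in WT and 1.24 to 2.64 in the knockout. The probes A_55_P1999108 and A_55_P2068510 gave knockout means at day 60 of 4.73 ± 0.23 and 4.80 ± 0.26 (SD, n = 6) against WT means of 1.87 ± 0.82 and 2.27 ± 0.58 (SD, n = 5). The 3 Defa1 probes gave bounds of at least 2.63-fold (A_55_P1999108), 1.78-fold (A_55_P1999110) and 2.75-fold (A_55_P2068510) for knockout over WT at day 60, with no WT array above background.

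The related-sequence gene Defa-rs2 was below the background call on every WT array. WT_P20 arrays read 1.07 to 2.46 (median 2.11) with none above background. Efnb1cKO_P20 arrays read 4.34, 4.14, 3.40, 3.62, 3.44 and 2.36, of which the first 5 were above background and above every WT_P20 array, and the last lay inside the WT range. At day 60 the WT arrays read 0.91, 2.22, 1.30, 1.08 and 1.35, all below the call, and the knockout arrays 6.54 to 6.88 (median 6.75), all above it. The day 60 means were 1.37 ± 0.51 (SD, n = 5) and 6.73 ± 0.12 (SD, n = 6). The difference in signal was 5.36, from a WT level that was not measured, and the bound was at least a 10.5-fold higher signal in the knockout.

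The probes of Defa-rs4 and Defa-rs12 were mostly below the background call in WT. The Defa-rs4 arrays read 1.27 to 3.11 (median 2.60) in WT_P20, 2.42 to 3.82 (median 2.94) in Efnb1cKO_P20 and 2.37 to 2.97 (median 2.57) in WT_P60. In Efnb1cKO_P60 they read 5.21 to 5.49 (median 5.35), so the groups overlapped at day 20 and were apart at day 60, with at least a 4.03-fold higher signal in the knockout. The Defa-rs12 arrays read 2.51 to 3.35 (median 2.70) in WT_P20 and 3.31 to 4.15 (median 3.58) in Efnb1cKO_P20, where 5 of 6 knockout arrays lay above every WT array and 3 of 6 were above background. At day 60 the call for Defa-rs12 was made on 1 of 5 WT arrays and on 6 of 6 knockout arrays, with means of 2.92 ± 0.43 (SD, n = 5) and 5.66 ± 0.21 (SD, n = 6).

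Defa-rs10 and Defa-rs7 were measured in every mouse, WT included. Defa-rs10 was well above background on all 23 arrays, with levels of 5.22 to 5.55 (median 5.32) in WT_P20, 5.30 to 5.91 (median 5.65) in Efnb1cKO_P20 and 5.19 to 5.68 (median 5.41) in WT_P60. Its Efnb1cKO_P60 arrays read 6.70 to 6.86 (median 6.81) and stood above all others. Both genotypes were measured at day 60, so the fold is not a bound, and it was 2.61, from means of 5.41 ± 0.20 (SD, n = 5) and 6.80 ± 0.07 (SD, n = 6). The Defa-rs7 probe A_55_P2018862 was likewise above background on all 23 arrays, and its day 60 means of 4.13 ± 0.34 (SD, n = 5) and 6.07 ± 0.15 (SD, n = 6) gave a fold of 3.85. Its WT_P60 arrays read 3.95, 3.95, 4.09, 4.73 and 3.93, so replicate 5 stood above the other 4 and still below every knockout array, at 5.88 to 6.27. The second Defa-rs7 probe, A_55_P2018863, was above background on no array, with means of 1.15 in WT_P60 and 3.02 in Efnb1cKO_P60.

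**Figure D1:**
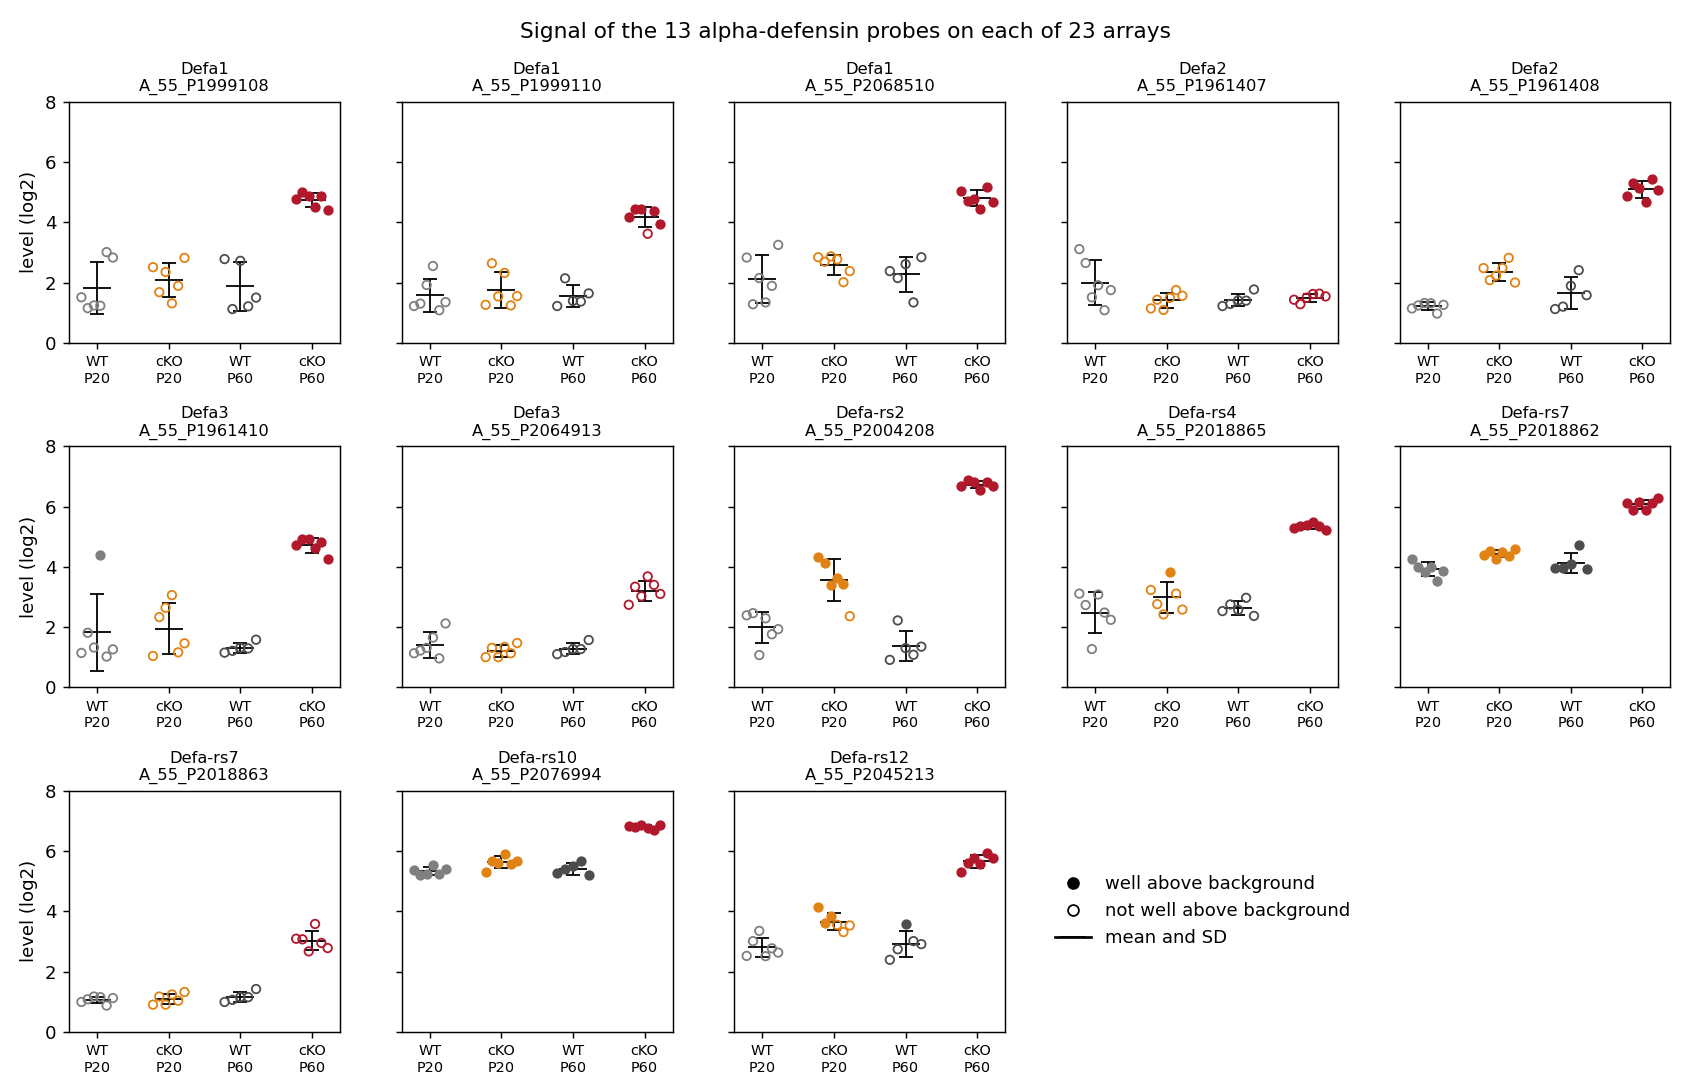
Level (log2) of each of the 13 probes on every array, in the 4 groups of 5 or 6 mice; filled points were well above background, open points were not, and the black bar is the mean with its SD. All 6 Efnb1cKO_P60 arrays stand above all 5 WT_P60 arrays for every probe except Defa2 A_55_P1961407, and Defa-rs10 and Defa-rs7 A_55_P2018862 are filled in every group.

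At day 20 the knockout was compared with WT for the 10 tested probes. Only Defa2 A_55_P1961408 was called (limma, Benjamini-Hochberg over all 35718 tested probes, adjusted p = 0.0195), with every knockout array above every WT array. The probe had entered the test only through Efnb1cKO_P60, and all 12 of its day 20 arrays were below the background call, so this compares signals that were not measured above background. No fold is given, and the mean signals were 1.21 ± 0.13 in WT and 2.35 ± 0.30 in the knockout (SD, n = 6 each). This was 1 of 10 probes, against 0.0224% of all tested probes called higher in the knockout at this age, and 9 of 35718 called in either direction (0.0252%), and nothing is read from that share, since 7 of the 10 probes had entered through Efnb1cKO_P60. Full separation of the groups in this direction occurred in 0.129% of all tested probes.

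The other 9 probes did not pass at day 20. Defa-rs2 was closest, with a difference of 1.56 (SE 0.279, limma adjusted p = 0.0517) and 5 of 6 knockout arrays above all WT arrays. Defa-rs12 differed by 0.87 (SE 0.177, limma adjusted p = 0.134), Defa-rs7 A_55_P2018862 by 0.52 (SE 0.124, limma adjusted p = 0.297) and Defa-rs10 by 0.28 (SE 0.0888, limma adjusted p = 0.745). The Defa-rs4, Defa1 and Defa3 probes differed by 0.13 to 0.50, each with a limma adjusted p of 1. Some of these probes share most of their bases, so not all of them count as separate observations. The Defa2 call also ended with normexp background correction, run with an offset of 50 (difference 0.14, limma adjusted p = 1). The same call ended in the authors' values (0.16, limma adjusted p = 0.977) and with a variance trend and robust prior (limma adjusted p = 0.124). It was lost without Efnb1cKO_P20 replicate 1 (limma adjusted p = 0.08), without Efnb1cKO_P20 replicate 4 (0.0675) or without WT_P20 replicate 5 (0.0633), while Defa-rs2 was called without Efnb1cKO_P20 replicate 6 (0.00264) and without WT_P60 replicate 3 (0.0281), and Defa-rs12 without WT_P20 replicate 3 (0.0498).

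At day 60 the 10 tested probes were higher in the knockout by 1.39 (Defa-rs10) to 5.36 (Defa-rs2), with a median of 2.72. The count past the threshold was 10, beside 0.406% of all tested probes in that direction and 0.599% in either, but the genes were chosen on this contrast, so this is no test of them. All 6 knockout arrays lay above all 5 WT arrays for these 10 and for the untested probes of Defa3 and Defa-rs7, beside 1.14% of all tested probes. The difference had the same sign on each of the 3 slides that carried the arrays, from 1.18 for Defa-rs10 to 5.56 for Defa-rs2. The sizes depended on the processing. With normexp the 10 differences ran from 0.34 (Defa1 A_55_P1999110) to 1.48 (Defa-rs2). It was run with an offset of 50 added to every signal, and such a constant by itself makes log2 differences of dim probes smaller. The authors' values, whose scaling is not given, gave 2.14 for Defa-rs2. In bulk tissue, more cells that express a gene and more RNA per cell cannot be told apart.

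**Figure D2:**
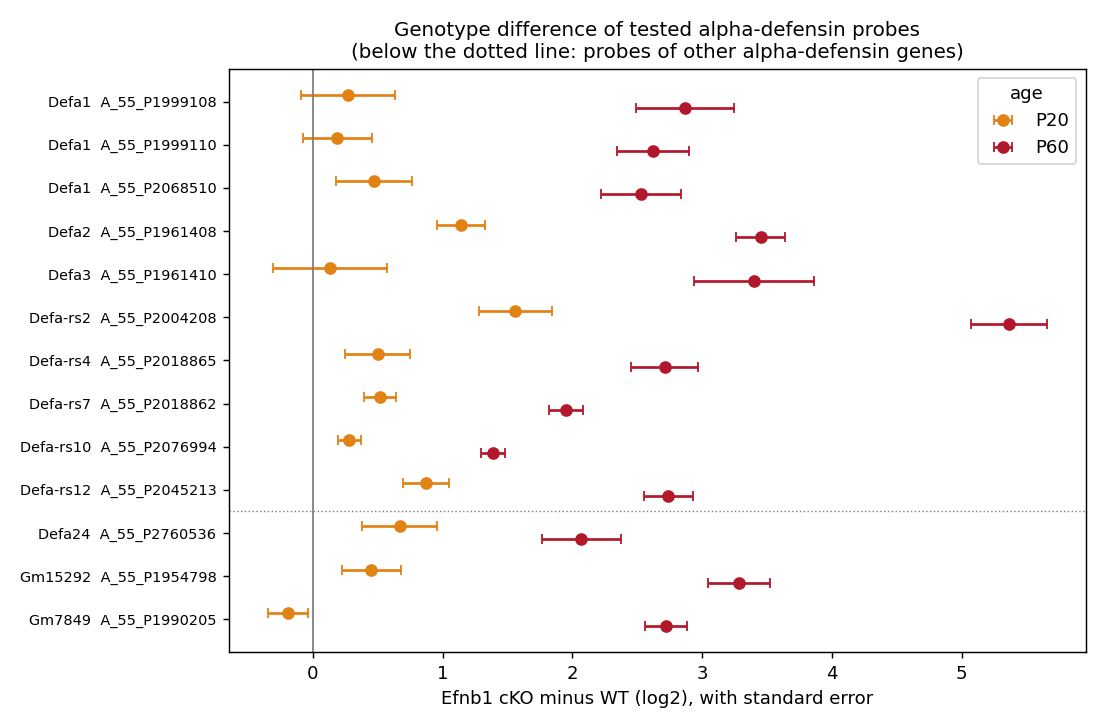
Difference between Efnb1 cKO and WT (log2, horizontal axis) with its standard error for each tested alpha-defensin probe, at day 20 in orange and at day 60 in red. The red points run from 1.39 to 5.36 for the 10 probes above the dotted line, while the orange points run from 0.13 to 1.56; probes of Defa24, Gm15292 and Gm7849 stand below the line.

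The genotype difference in signal was larger at day 60 than at day 20 for each of the 10 tested probes, by 1.1 (Defa-rs10) to 3.79 (Defa-rs2). Only Defa-rs10 and Defa-rs7 A_55_P2018862 were above background on every WT array, so the other sizes rest on WT signals mostly below the call. The count past the threshold for this change was 7, beside 0.028% of all tested probes in that direction and 0.0392% in either, and it too rests on the arrays that chose the genes. With age, the 10 probes changed in WT by -0.61 to 0.44 (median 0.10). None passed the threshold, beside 18.5% of all tested probes called higher and 36.6% called in either direction. Apart from Defa-rs10 and Defa-rs7, these are changes between WT signals that were mostly not measured, so they do not show stable WT levels. In the knockout they were higher at day 60 by 1.17 to 3.18 (median 2.39), with a count of 10 past the threshold, beside 19.9% of all tested probes called higher (39.8% in either direction). These comparisons share their groups with the day 60 contrast and describe the same arrays, so they are no tests of the genes.

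The levels over the 23 arrays followed each other closely. Each tested probe correlated with the scaled mean of the 10 at r = 0.884 to 0.982 over 23 arrays, a description in which the Efnb1cKO_P60 group supplies most of the range. Over the 45 pairs of tested probes, the correlation of deviations from the group means had a median of 0.02 and ran from -0.48 to 0.71. Most of these probes were below the background call on most arrays outside Efnb1cKO_P60, so nothing is read from that value.

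Sequence likeness between the probes ran along the gene groups. Among the 45 pairs of tested probes identity was 6.7% to 88.3% (median 21.7%), and 3 pairs exceeded 80%. These were Defa-rs10 with Defa-rs12 (88.3%), the Defa1 probes A_55_P1999108 and A_55_P2068510 (86.7%), and Defa1 A_55_P1999110 with Defa3 (86.7%). When all alpha-defensin probes on the array were included, 7 of the 10 had a partner over 80%, and the remaining 3 were Defa-rs2, Defa-rs4 (nearest 66.7%) and Defa-rs7 (nearest 78.3%). The probes that were bright in Efnb1cKO_P60 included sequences with little in common, such as those of Defa2 and Defa-rs4 (6.7%).

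**Figure D3:**
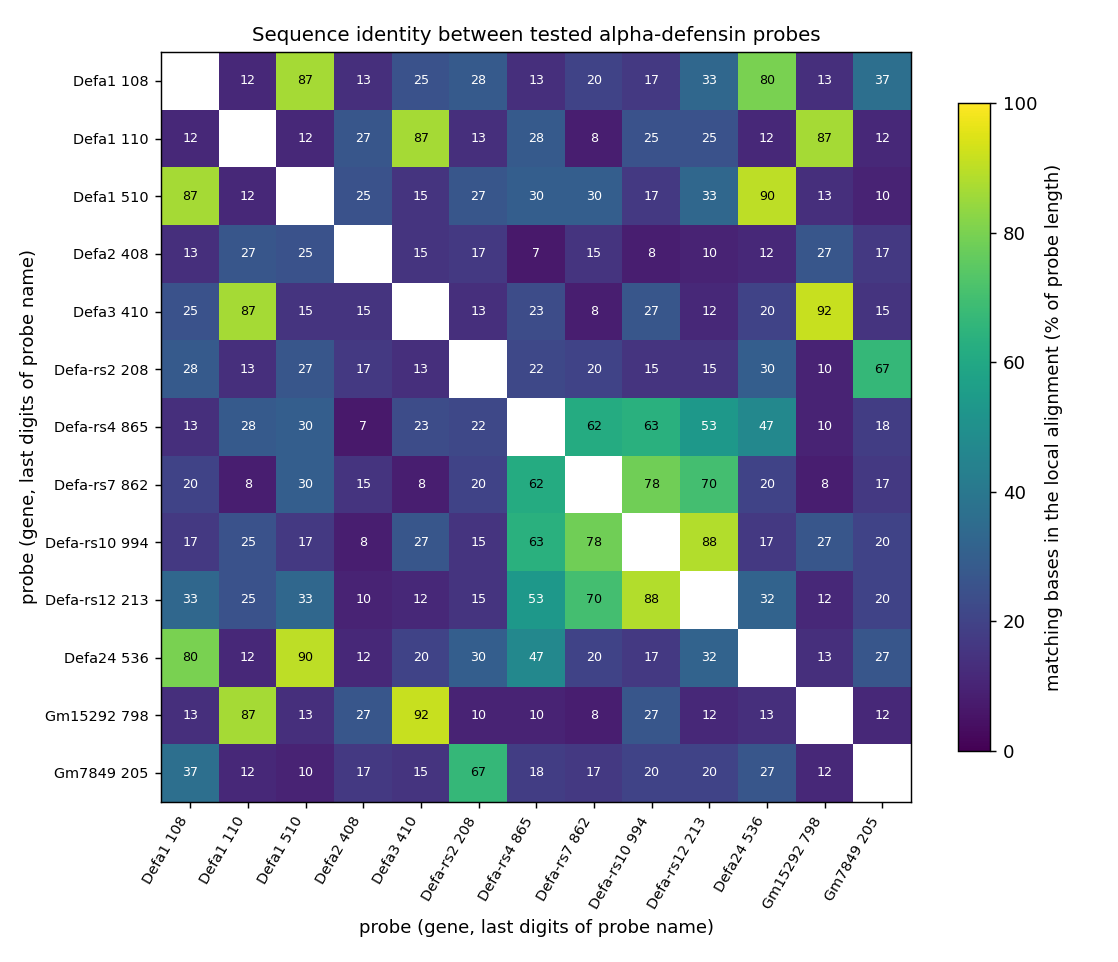
Matching bases in the best local alignment, as a percentage of the 60-base probe length, for every pair of the 13 tested alpha-defensin probes (10 of the 8 genes, and those of Defa24, Gm15292 and Gm7849). The bright cells join Defa1 with Defa24, Defa3 with Gm15292 and Defa-rs10 with Defa-rs12, and most other pairs share few bases.

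RefSeq gene names matched 3 of the 8 genes, Defa2, Defa3 and Defa-rs7 (there Defa31), and promoter sequences were at hand for Defa2 and Defa31. They are printed because probes carrying these names were bright in Efnb1cKO_P60, although the other probe of each gene was not above background on any array. The 250 bases before the RefSeq start (GRCm38.p6, plus strand) are given with the motifs TATAAA, the TATA box, and CTTTGA, a core recognised by TCF factors of the Wnt pathway, in capitals. CTTTGA appears as its reverse complement TCAAAG.
Defa2 promoter chr8:21378267-21378516: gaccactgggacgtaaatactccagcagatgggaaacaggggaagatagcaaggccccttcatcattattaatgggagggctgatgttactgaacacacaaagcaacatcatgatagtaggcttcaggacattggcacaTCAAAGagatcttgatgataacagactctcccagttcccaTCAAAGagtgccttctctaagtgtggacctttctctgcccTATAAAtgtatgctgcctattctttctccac
Defa31 promoter chr8:21191323-21191572: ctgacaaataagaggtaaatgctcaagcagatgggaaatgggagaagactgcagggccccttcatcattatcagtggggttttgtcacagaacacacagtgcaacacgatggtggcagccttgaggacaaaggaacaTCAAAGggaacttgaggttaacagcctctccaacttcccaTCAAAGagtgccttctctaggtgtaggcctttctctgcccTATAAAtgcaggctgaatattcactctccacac
These promoters were 79.6% identical, and each held 2 CTTTGA matches and 1 TATAAA match, which began 31 and 33 bases before the start. The promoter of Defa42, to which the probe named Gm7849 belongs, was 67.2% identical to that of Defa2 and 66.4% to that of Defa31, with 0 CTTTGA matches and 1 TATAAA match that began 74 bases before the start. Both motifs were searched on both strands. Over the 16 promoters of genes named Defa in the table, 15 held TATAAA (93.8%) and 13 held CTTTGA (81.2%), beside 12.4% and 13.8% of all 32851 promoters of the same length. A match describes these letters and is not a binding site, and no binding was measured.

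The array carries 20 probes of other alpha-defensin genes, of which 3 were tested. At day 60 the Defa24 probe had a knockout mean of 4.48 ± 0.24 (SD, n = 6) against 2.41 ± 0.45 (SD, n = 5), at least 2.22-fold higher. Gm15292, which RefSeq names Defa40, was at least 2.54-fold and Gm7849, named Defa42, at least 1.36-fold higher in the knockout. All 3 reached the limit for testing only with the Efnb1cKO_P60 arrays, and the last 2 names were added after their values were seen, so these values are a description. None of these 3 was called at day 20 (limma adjusted p = 1 each), where Gm7849 differed by -0.19. The Defa24 and Gm15292 probes share 90% and 91.7% of their bases with Defa1 A_55_P2068510 and Defa3 A_55_P1961410, so they do not add separate evidence. Probes of Defa4, Defa10, Defa25 and the pseudogenes Defa-ps1, Defa-ps12 and Defa-ps13 were well above background on no array. Beta-defensins, the sister family of epithelial peptides, had 7 of 43 genes tested, and 0 were called at either age in limma (medians of -0.34 at day 20 and -0.05 at day 60).

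The probes around the cluster were counted next. Within 1 Mb of the span of the mapped probes, 19 probes of 17 features outside the family were tested, and 1 was called at day 60 and 0 at day 20, with a median difference at day 60 of -0.01. The called probe, A_55_P2104076, carries a transcript identifier (ENSMUST00000098889) in place of a gene symbol, lies at chr8:22556417-22556476 (mm9) inside the cluster, differed by 2.37, was above background on no array outside Efnb1cKO_P60 and is 85% identical to the Defa1 probe A_55_P2068510. Within 2 Mb, 1 of 47 probes was higher and 1 lower. The lower was A_55_P2728713 of Ap3m2, a subunit of the AP-3 vesicle adaptor, at -0.73 (limma adjusted p = 0.0169). That dim probe was above background on 5 WT_P60 and 0 Efnb1cKO_P60 arrays. The Ap3m2 probes A_51_P467837 and A_55_P2869633 differed by 0 and -0.05, so the call holds for 1 probe and not for the gene. Within 5 Mb, 1 of 142 was higher and 2 were lower. On the whole chromosome 7 of 1811 probes outside the family were higher and 5 lower, a share of higher probes close to the 0.406% of all tested probes.

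**Figure D4:**
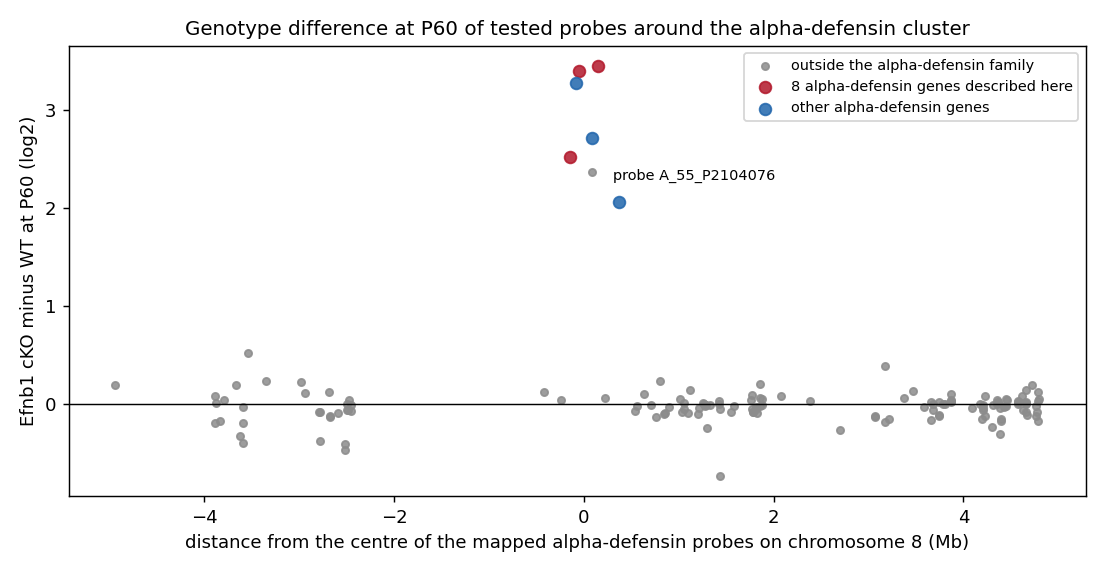
Difference between Efnb1 cKO and WT at day 60 (log2) against distance (Mb) from the centre of the mapped alpha-defensin probes on chromosome 8, for all tested probes within 5 Mb. Alpha-defensin probes and probe A_55_P2104076 lie at 2.07 to 3.45 near 0 Mb, while the probes on each side lie around the median of -0.01.

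Markers of cells known to make defensins, and of other cells that a ventricle sample could hold, were set beside these values. Of 12 Paneth cell genes on the array 4 were tested and 0 were called at either age in limma. Median differences were 0.07 at day 20 and -0.07 at day 60. The log2 of the summed signal, with the brightest probe of each gene, was 12.5 to 12.62 in WT_P60 and 12.35 to 12.55 in Efnb1cKO_P60. Lyz1 makes up most of that sum, with means of 12.29 and 12.22, so the sum says little about the other genes of the list. Of the defining Paneth genes, Mmp7, which cuts the precursors, was well above background on no array with either of its probes, and the same held for Pla2g2a, Reg3b, Mptx1 and Mptx2. Reg3g was above background on 2 WT_P20 arrays and Itln1, with 1 of its probes, on 1 Efnb1cKO_P20 array, and neither was above it on any day 60 array. Lyz1 and Ang4, lysozyme and an angiogenin, were measured on all arrays and differed at day 60 by -0.07 and 0.03 (limma adjusted p = 0.858 and 0.978). Of 15 intestinal epithelium genes 3 were tested, with 0 called in limma at either age. Vil1, the brush border protein villin, differed by 0.14 at day 60 (limma adjusted p = 0.689), and Cdh17 and Fabp2 were above background on no array. Of 14 neutrophil and granule genes 8 were tested, with 0 called in limma, among them Elane, a granule protease (0.17 at day 60, limma adjusted p = 0.504), and Mpo, myeloperoxidase (0.14, limma adjusted p = 0.942), while Ngp was above background on no array.

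Among the remaining lists, the macrophage (10 genes tested), antimicrobial (10), ventricular cardiomyocyte (11) and erythroid (6) genes gave 0 calls at either age in limma. Over all tested probes 1627 had an unadjusted p under 0.05 at day 20 and 3115 at day 60. The pancreatic list, of 5 tested genes, held 1 call at day 60, the amylase gene Amy2a5, at -0.71 (limma adjusted p = 0.0413). The list of defensin processing and secretion, of 11 tested genes, held 1, the granule-trafficking GTPase Rab3d, at 0.39 on probe A_52_P432919 (limma adjusted p = 0.0149). Atrial genes had positive differences on 8 of 8 probes at both ages, with medians of 0.96 at day 20 and 0.13 at day 60 and 0 calls in limma. The log2 of their summed signal was 14.72 to 16.92 in WT_P20 and 15.37 to 18.31 in Efnb1cKO_P20. Erythroid probes had a median of 0.46 at day 20, and the log2 of their summed signal was 18.09 to 18.43 in WT_P20 and 18.24 to 18.66 in Efnb1cKO_P20. The part of either in the day 20 values of the defensin probes was not tested.

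**Figure D5:**
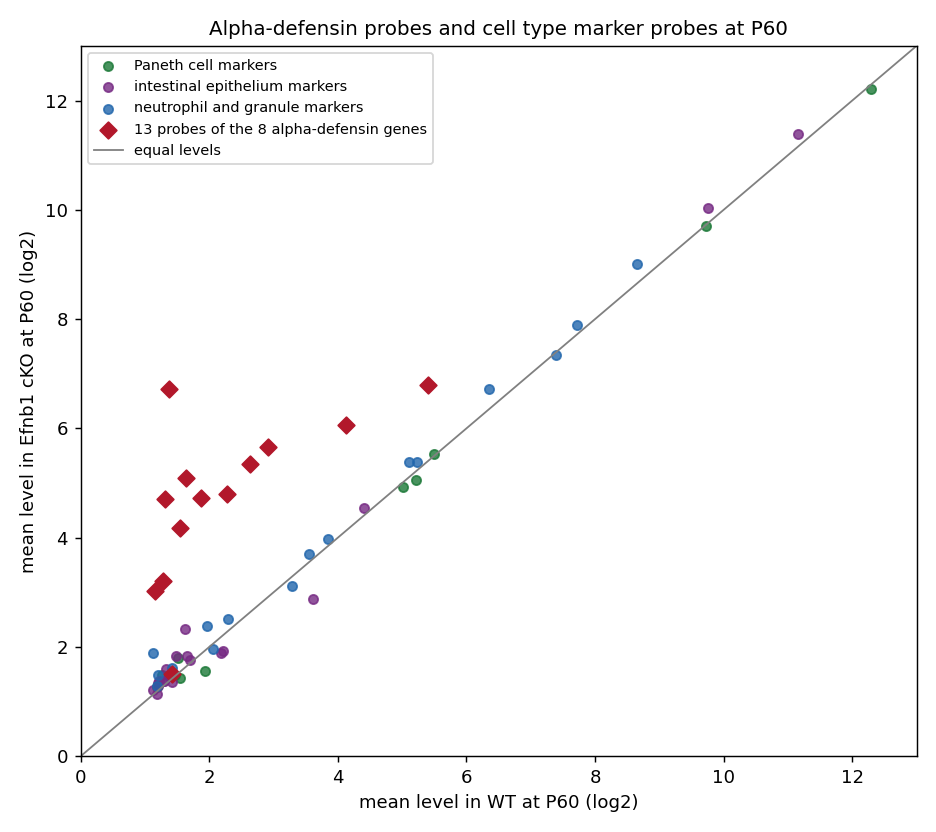
Mean level (log2) in WT_P60 against that in Efnb1cKO_P60 for probes of Paneth cell, intestinal epithelium and neutrophil markers (circles, the alpha-defensins of the Paneth list left out) and for the 13 alpha-defensin probes (diamonds), with the line of equal levels. Of the diamonds, 12 lie above the line and that of Defa2 A_55_P1961407 lies close to it, among the circles.

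Of genes outside the family, those whose levels followed the scaled mean of the 10 probes most closely over the 23 arrays were Pcbd1 (r = 0.921), Psca (0.913), Crip3 (0.9), Dgki (0.891) and Rnf157 (0.877). Those with the lowest correlation were Ctnna3 (-0.925), Dmd (-0.909), Amph (-0.845), Ap3m2 (-0.839, on its dim probe A_55_P2728713 only) and 2210407C18Rik (-0.82). These are descriptions over arrays that share the 4 groups. Psca, a small surface glycoprotein, and Dgki, a diacylglycerol kinase, were higher in the knockout at day 60 by 2.21 and 2.48. Their WT_P60 means were 3.1 and 1.25, and the lowest signal called above background on an array was 3.05 to 3.6. Both sizes thus rest on WT signals near or below the detection limit. Dmd, which encodes dystrophin, and Ctnna3, an alpha-catenin of the intercalated disc, were lower, at -0.54 and -0.61. These genes were picked for following the defensin probes, so the differences are given with no test. The 2 probes of Ndnf, a secreted glycoprotein, correlated at 0.864 and 0.871, and on the first of them (A_52_P956261) the genotype difference was 1.42 at day 20 and 1.5 at day 60.

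The targeted gene, Efnb1, has 1 probe (A_51_P388478). Its means were 11.91 ± 0.34 in WT_P20 and 11.57 ± 0.15 in Efnb1cKO_P20 (SD, n = 6 each), and 11.37 ± 0.11 (SD, n = 5) and 10.89 ± 0.05 (SD, n = 6) at day 60. The knockout means were lower at both ages without passing the threshold, at -0.35 (limma adjusted p = 0.772) and -0.48 (limma adjusted p = 0.0651), and whether the probe lies in the deleted part was not analysed here. On each array 58.1% to 62.5% of probes were well above background, none was saturated, and arrays of the same group correlated at 0.9892 to 0.9961 over 55 pairs. The number of arrays limits the precision.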

How the data were processed

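The deposited scanner tables, made with Agilent Feature Extraction 10.10.1.1 per the submitters' processing notes, give a background-subtracted intensity for each Cy3 spot and a call of whether it is well above background. The authors' deposited value table holds log2 values of the same arrays with equal medians of 7.87, its other scaling not being given in the sources used here, and served as an alternative. Control spots and outlier-flagged spots were left out, spots of a probe were averaged, and log2 intensities were scaled to the 75th percentile of each array. Probes well above background on at least 5 of 23 arrays (35718) were fitted with limma 3.58.1 in R 4.3.3, with a mean for each of the 4 groups, two-sided, at an adjusted p below 0.05 after Benjamini-Hochberg over all of them. The fit was tested on simulated data. Another background correction (normexp with an offset of 50) and other scalings, filters, blocks, variance models and left-out arrays were tried. Probe identity is from local alignments in Biopython 1.88.

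The members and the 12 gene lists were chosen with earlier results of these data known. All 8 genes and their probes were described; the called genes of each list and the first markers of the Paneth, intestinal and neutrophil lists were named, the other lists being given by counts, and outside the family the 5 highest and 5 lowest correlations.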

Additional observations from a re-analysis of the deposited data

Results flagged for a closer look

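In 2 of the 52 combinations of a probe and a group that were checked, an array stood apart from the rest of its group, where chance gives about 1 in 20. For Defa3 A_55_P1961410, WT_P20 replicate 4 read 4.39, well above background, and the next highest array read 1.81. For Defa-rs7 A_55_P2018862, WT_P60 replicate 5 read 4.73 and the next highest 4.09.

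For 7 probes the genotype difference at day 60 stood out from that at day 20. The genes were partly chosen on this change, so the values are a description and no test. Except for Defa-rs7 and Defa-rs10, they rest on WT signals that were mostly below the background call. The day 60 difference minus the day 20 difference was 2.31 for Defa2 A_55_P1961408, 2.43 for Defa1 A_55_P1999110 and 3.79 for Defa-rs2. It was 1.42 for Defa-rs7 A_55_P2018862, 2.21 for Defa-rs4, 1.87 for Defa-rs12 and 1.1 for Defa-rs10.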

How the results depend on the processing

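The number of probes called at day 20 (1) became 0 with normexp background correction, with the authors' values (8 tested) and with probes above background on every array (2 tested). It became 2 with quantile normalization, array weights and probes above background on all arrays of a group. It ran from 0 to 2 when each array was left out. The day 60 count (10) became 2 of 2 with probes above background on every array and 9 of 9 with probes above background on all arrays of a group. It was 8 of 8 in the authors' values and 12 of 13 with no filter, and stayed at 10 when any single array was left out. The count for the change with age (7) became 4 with normexp, 2 with probes above background on every array and 6 with those above it on all arrays of a group. It was 7 of 8 in the authors' values, 8 with quantile normalization, 9 with array weights and 9 of 13 with no filter. Without single arrays it ran from 7 to 8. For Defa2 the day 20 difference was 0.14 with normexp and 0.16 in the authors' values (limma adjusted p = 1 and 0.977), and 1.14 with a variance trend and robust prior, where the adjusted p was 0.124. Over its 11 alternatives that p ran from 0.007 to 1, with 8 calls, and for Defa-rs2 from 0.0342 to 0.468, with 4. Defa3 at day 20 changed sign with array weights (-0.12) and ran from -0.09 to 0.64 when each array was left out. The causes were not tested. At day 60 every sign held, with smaller sizes under normexp with its offset of 50 (Defa-rs2 1.48) and in the authors' values (2.14). The replicate block, for numbers whose deviations did not pair the samples (r from -0.16 to 0.39), gave 1, 10 and 7 calls. The count of neighbours called within 1 Mb was 1 under all 6 alternatives. Signals near background limit the WT values.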
